A study of Homo sapiens with 4 samples.

Results

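Human chromosomes 4, 13 and 18 are the 3 chromosomes with the fewest protein-coding genes per sequenced Mb among the autosomes and X, at 4.06, 3.37 and 3.56 genes per Mb. The loops and contact domains described here are those whose chromosome column reads 4, 13 or 18. That rule uses no measured value, but it was set with earlier results of these data known. The loop lists held 1831 such loops in vehicle 1, 2142 in vehicle 2, 1668 in THZ1 1 and 1435 in THZ1 2, beside 18937, 22077, 15554 and 13631 loops on the 20 other chromosomes. The domain lists held 96, 116, 220 and 209 domains in the same order, beside 1101, 1281, 2256 and 2135 elsewhere. Together the 3 chromosomes span 357.9 sequenced Mb and carry 1349 protein-coding genes.

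The lists come from Hi-C, an assay that ligates and sequences pairs of DNA fragments that lay close together in the nucleus. MDA-MB-231, an established triple negative breast cancer (TNBC) line labelled wild type, was grown for 48 h with 75 nM THZ1 or with DMSO as vehicle, and each condition had 2 libraries. THZ1 is a covalent inhibitor of CDK7, the kinase that phosphorylates the tail of RNA polymerase II and activates the cell-cycle kinases. The comparison asks whether CDK7 inhibition alters how chromatin is folded. The labels do not say that the paired libraries came from separate cultures, so the spread between them may be technical.

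In interphase, cohesin extrudes chromatin loops and tends to stop where CTCF is bound with its motifs pointing toward each other. Such loops often frame contact domains, stretches whose parts touch each other more than they touch their surroundings. Condensin, a related complex, folds chromosomes mainly in mitosis. Gene-poor chromosomes hold long gene deserts, tend to lie at the nuclear periphery and carry much late-replicating, weakly transcribed chromatin.

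The core of the CTCF motif was searched on both strands as CCA, AG and GGCA in that order, each separated by 2 bases of any kind. Among 209 loops of the 3 chromosomes whose anchors were identical in all 4 lists, 8 had motifs on a single strand at each anchor, and in 5 of these the motifs pointed toward each other, in 2 away from each other and in 1 the same way. The strongest loop with facing motifs on each chromosome, picked after the values were seen, is shown here because it gives the sequence picture of a loop present under both treatments. Each stretch is 41 bases of GRCh37, read 5′ to 3′ on the strand that carries the motif, with the motif in capitals.

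On chromosome 4 the loop runs from an intron of SLIT2, which encodes a secreted guidance ligand, to a point outside any protein-coding gene. The first stretch is chr4:20420653-20420693 on the plus strand and the second is chr4:20686966-20687006 on the minus strand.
SLIT2 loop, first anchor: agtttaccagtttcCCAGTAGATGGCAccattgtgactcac
SLIT2 loop, second anchor: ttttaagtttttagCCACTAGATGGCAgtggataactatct

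On chromosome 13 the loop ends in an intron of TSC22D1, a TGF-beta-induced transcriptional regulator. Its stretches are chr13:44482701-44482741 on the plus strand and chr13:45012295-45012335 on the minus strand, the first in an intron of a protein-coding gene that has no symbol in the annotation.
TSC22D1 loop, first anchor: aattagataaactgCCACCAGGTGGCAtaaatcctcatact
TSC22D1 loop, second anchor: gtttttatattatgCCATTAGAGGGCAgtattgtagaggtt

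On chromosome 18 the loop starts in an intron of ZNF516, a zinc finger gene, at chr18:74111028-74111068 on the plus strand. Its second anchor lies outside protein-coding genes and holds 2 motifs on the minus strand, of which chr18:74421911-74421951 is shown.
ZNF516 loop, first anchor: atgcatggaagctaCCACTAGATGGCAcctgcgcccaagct
ZNF516 loop, second anchor: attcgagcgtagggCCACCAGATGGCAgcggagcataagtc

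Across all loops, 11.8% of the 5 kb anchors in vehicle 1, 11.4% in vehicle 2 and 15.6% in each THZ1 library held the motif, beside 4.37% of all 5 kb windows of these chromosomes. The other chromosomes had 12.9%, 12.6%, 16.9% and 17.1% in vehicle 1, vehicle 2, THZ1 1 and THZ1 2, beside 5.32% of their windows. Over all anchor widths (5, 10 and 25 kb), loops with a motif on a single strand at each anchor numbered 69, 84, 99 and 96. This order is vehicle 1, vehicle 2, THZ1 1 and THZ1 2. The motifs faced each other in 40, 47, 65 and 64 of them. These are 58.0%, 56.0%, 65.7% and 66.7%, against 52.8%, 54.8%, 57.5% and 59.9% on the other chromosomes, where the share was also higher in both THZ1 libraries. The facing share on the 3 chromosomes depended on anchor width. It was 75.0%, 73.1%, 90.6% and 90.9% at 5 kb and 35.7%, 38.2%, 45.5% and 44.4% at 25 kb. At 10 kb it was 71.4%, 62.5%, 69.6% and 73.7%, and the conditions overlapped. The share of anchors with the motif was thus above that of the windows in all 4 libraries, and higher in both THZ1 than in both vehicle libraries. A match is a description of the sequence and not a measurement of CTCF, and the loops listed in THZ1 were also longer, as given below.

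Loops were sparse per Mb on the 3 chromosomes but numerous per gene, and their number was lower in THZ1. There were 5.12 and 5.98 loops per Mb in vehicle 1 and vehicle 2 and 4.66 and 4.01 in THZ1 1 and THZ1 2. The other chromosomes had 7.64, 8.91, 6.28 and 5.50 loops per Mb in that order. Per protein-coding gene the order turned, with 1.36, 1.59, 1.24 and 1.06 loops on the gene-poor chromosomes and 1.01, 1.18, 0.830 and 0.727 elsewhere. Each THZ1 library had fewer loops than each vehicle library, and the mean was 1.28-fold higher in vehicle on the 3 chromosomes (1987 ± 220 against 1552 ± 165, SD, n = 2) and 1.41-fold higher elsewhere. With 2 libraries against 2 the exact permutation test (two-sided) cannot go below p = 0.333, which it gave here and for every other single value whose groups did not overlap. Among loops with 25 kb anchors alone the direction turned, with a log2 change of 0.21 in THZ1. Among those with 5 kb anchors alone the log2 change was -0.70, in place of -0.36 for all loops.

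Chromosome 13 had 403, 487, 349 and 291 loops, or 4.22, 5.09, 3.65 and 3.04 per Mb, in vehicle 1, vehicle 2, THZ1 1 and THZ1 2. This was the second-lowest density of all chromosomes in each library, above the X chromosome alone, which had 2.69, 3.45, 2.40 and 2.04. Chromosome 18 had 371, 436, 330 and 296 loops, or 4.97, 5.84, 4.42 and 3.96 per Mb. Chromosome 4 had 1057, 1219, 989 and 848 loops, or 5.63, 6.50, 5.27 and 4.52 per Mb. On each of the 3 chromosomes the vehicle and THZ1 counts did not overlap, and the same held on every other chromosome.

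**Figure D1:**
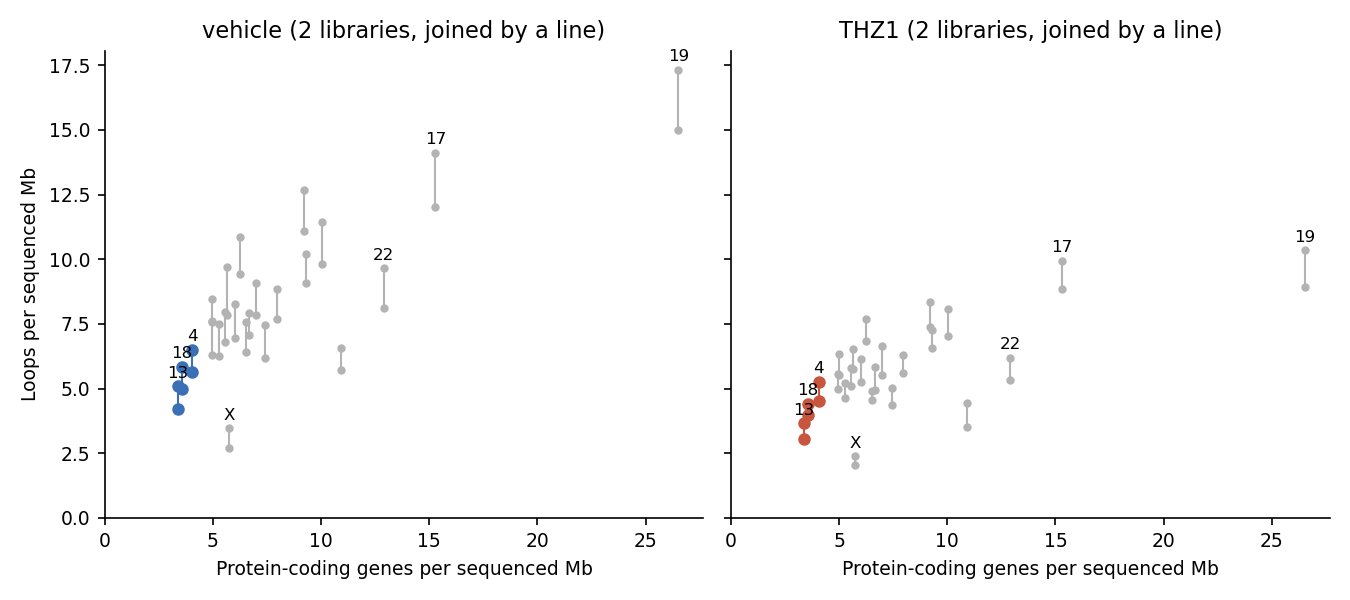
Loops per sequenced Mb against protein-coding genes per sequenced Mb for each chromosome, vehicle on the left and THZ1 on the right. Each chromosome has 2 points, 1 per library, joined by a line, and coloured points are chromosomes 4, 13 and 18, which lie at the left edge with 3.04 to 6.50 loops per Mb.

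The gene-poor chromosomes had proportionally more of the loops in THZ1 than in vehicle, and chromosome 4 carried most of this. Their share of all loops was 8.82% in vehicle 1 and 8.84% in vehicle 2, against 9.69% in THZ1 1 and 9.52% in THZ1 2, and the groups did not overlap (exact permutation p = 0.333). With 5 kb anchors only, the mean share was 8.12% in vehicle and 8.28% in THZ1, a difference of 0.16 percentage points in place of 0.77. In edgeR's quasi-likelihood test on loop counts per chromosome, with all loops of a library as its size and Benjamini-Hochberg adjustment over 23 chromosomes, the share on chromosome 4 rose by 0.17 on the log2 scale (SE 0.045, adjusted p = 0.0022). Of the 23 chromosomes 4.35% were called higher, which is chromosome 4 alone, and 4.35% lower, which is the gene-rich chromosome 19. Chromosome 18 gave 0.11 (SE 0.077, adjusted p = 0.477) and chromosome 13 gave 0.0028 (SE 0.075, adjusted p = 0.998). Without THZ1 1 the value of chromosome 4 was 0.15 with an adjusted p of 0.0986.

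Loops up to 200 kb were fewer in each THZ1 than in each vehicle library, most steeply the shortest ones, while loops over 500 kb were as many or more in THZ1. The median distance between anchors was 175 kb in each vehicle library, 250 kb in THZ1 1 and 260 kb in THZ1 2. The other chromosomes had 135, 135, 200 and 200 kb in the same order. Over 12 alternatives the log2 change of this median on the gene-poor chromosomes, 0.54, ranged from 0.077 to 0.58. With a library left out it stayed between 0.51 and 0.57. The direction held in all 12, but the size of the change depended on the alternative. Loops of 50 kb or less numbered 265 and 313 in vehicle and 161 and 112 in THZ1, a log2 change of -1.08. Loops of 50 to 90 kb numbered 307 and 354 in vehicle and 204 and 174 in THZ1, a log2 change of -0.81. In both of these short classes the libraries of the 2 conditions did not overlap.

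The change moved stepwise with size. Between 90 and 200 kb the counts were 451, 518, 361 and 309 in vehicle 1, vehicle 2, THZ1 1 and THZ1 2, a log2 change of -0.53. Between 200 and 500 kb they were 525, 615, 527 and 475, and the conditions overlapped. Between 500 and 1000 kb they were 219, 268, 306 and 268, with a log2 change of 0.24 and equal counts in vehicle 2 and THZ1 2. Between 1000 and 10000 kb they were 64, 74, 109 and 97, so that both THZ1 libraries exceeded both vehicle libraries, with a log2 change of 0.58. No loop of these chromosomes in any list was longer, whereas the other chromosomes had 32 to 38 such loops per library. The other chromosomes followed the same course at a similar height, from -1.16 in the shortest class to 0.40 between 1000 and 10000 kb.

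**Figure D2:**
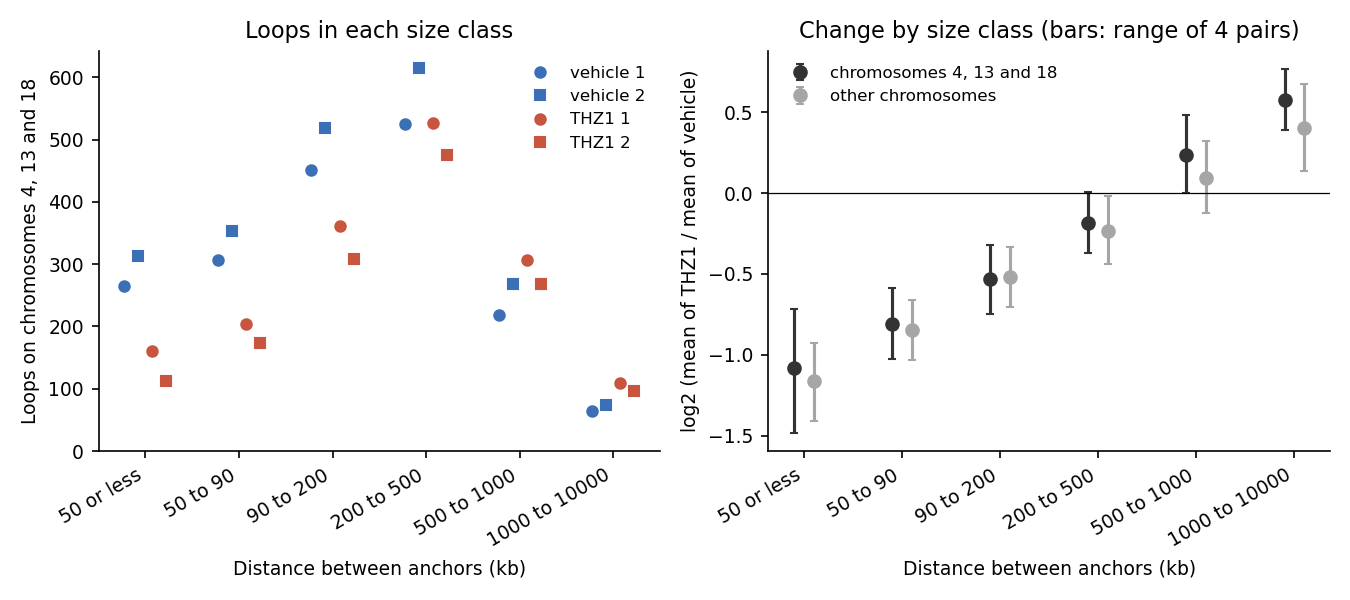
Left, loops of chromosomes 4, 13 and 18 in each size class, 1 point per library. Right, log2 ratio of the THZ1 mean to the vehicle mean in each class for the 3 chromosomes and for the others, with bars for the lowest and highest of the 4 pairs of libraries; values climb from -1.08 to 0.58 on the gene-poor chromosomes.

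Loops of 90 kb or less made up 31.2% and 31.1% of the vehicle loops and 21.9% and 19.9% of the THZ1 loops. On the other chromosomes these shares were 37.9%, 37.3%, 26.7% and 26.1%, so that short loops were scarcer on the gene-poor chromosomes in every library. Chromosome 18 differed from its partners, with medians of 145 and 140 kb in vehicle and 205 and 203 kb in THZ1, while chromosome 13 had 185, 190, 270 and 290 kb and chromosome 4 had 180, 180, 260 and 270 kb. With loops paired across lists when both anchor midpoints lay within 20 kb, 274 loops of vehicle 1 recurred in vehicle 2 and in neither THZ1 library, and their median size was 100 kb. The converse set, loops of THZ1 1 found again in THZ1 2 alone, held 98 loops with a median of 500 kb. These sets are 15.0% and 5.88% of the lists they were drawn from, against 16.5% (median 80 kb) and 4.44% (median 400 kb) on the other chromosomes. A further 810 loops of vehicle 1 were matched in all 4 libraries.

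Agreement between lists was limited also within a condition. Vehicle 1 and vehicle 2 had a Jaccard index (shared loops over all loops) of 0.530, THZ1 1 and THZ1 2 one of 0.512, and pairs that cross the conditions 0.414 to 0.470.

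Each loop has an observed contact count and an expected count from the ring of pixels around it (the donut), and log2 of their ratio is used here as its strength. The median strength of the loops on the 3 chromosomes was 2.29 in vehicle 1, 2.27 in vehicle 2, 2.04 in THZ1 1 and 2.05 in THZ1 2. The other chromosomes gave 2.19, 2.20, 2.03 and 2.01, so the gene-poor chromosomes stood 0.097 and 0.072 above them in vehicle and 0.0039 and 0.038 above them in THZ1. Both parts of the ratio were higher in THZ1, since the median observed count was 23, 24, 30 and 28 and the median donut count 4.54, 4.83, 6.94 and 6.65. Strength was higher in the longest than in the shortest class in every library, for example 1.87 at 50 kb or less and 2.81 above 1000 kb in vehicle 1, and 1.53 and 2.30 in THZ1 1. It was lower in both THZ1 libraries in every size class. A list of called loops holds other loops in each library, so these medians compare lists, not the same loops. Over 14 alternatives the THZ1 minus vehicle difference of the median over all loops of the 3 chromosomes, -0.24, ranged from -0.27 to -0.035.

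The same loops could be compared where the anchors were identical in all 4 lists, which held for 2617 tested loops of the genome, of which 209 lay on the 3 chromosomes (125 on chromosome 4, 42 on chromosome 13 and 42 on chromosome 18). Being listed 4 times, these loops are those that passed the caller in both conditions. In edgeR, fitted to the observed counts of all shared loops with the donut count as offset and Benjamini-Hochberg adjustment, 54 of the 209 were weaker in THZ1 at an adjusted p of 0.05 and 0 were stronger, against 27.5% called weaker and 0.0382% called stronger among all loops tested. The 54 loops are 25.8% of the members, close to that background. At an unadjusted p of 0.05, 70 members differed. The median change was -0.39 on the log2 scale for the members and -0.41 for all loops tested, and 195 of the 209 had a negative change.

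Over all shared loops the lower strength went with a higher count around the loop. Over the 209 loops the median log2 change of the observed count was 0.048, whereas that of the donut count was 0.47, and the donut count was higher in THZ1 for 206 loops. Of the 64 shared loops of 90 kb or less, 24 were called weaker, with a median change of -0.46. In this class the observed count was itself lower, with a median log2 change of -0.11 beside 0.39 for the donut count. In the longer classes the observed count changed by 0.17, 0.056 and 0.20, in order of size. The 51 loops of 90 to 200 kb had 7 called and a median of -0.21, the 68 loops of 200 to 500 kb had 16 and -0.41, and the 26 longer ones had 7 and -0.43. As shares these are 37.5%, 13.7%, 23.5% and 26.9%, against 39.2%, 23.7% and 19.3% of all loops tested in the first 3 classes and 45 of 250 in the longest. By chromosome, 33 of 125 loops were called on chromosome 4, 9 of 42 on chromosome 13 and 12 of 42 on chromosome 18.

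The number of calls changed with the libraries, the tool and the expected count, while the median change kept its size in all of these but one. With the bottom-left expected count 43 members were called weaker, beside 606 of all 2617 loops tested, and the median of the members was -0.42. Without vehicle 1, 20 members were called, and without vehicle 2, THZ1 1 or THZ1 2, 0 were called each time by edgeR (45 to 64 at an unadjusted p of 0.05), with medians of -0.37 to -0.40. DESeq2 called 1 member weaker, with a median of -0.39, and 16 of all loops tested. With the observed counts alone, scaled by TMM, 2 members were weaker, 8 stronger and the median change was 0.062. Of all loops tested, 108 were weaker and 67 stronger under this scaling, the reverse order.

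**Figure D3:**
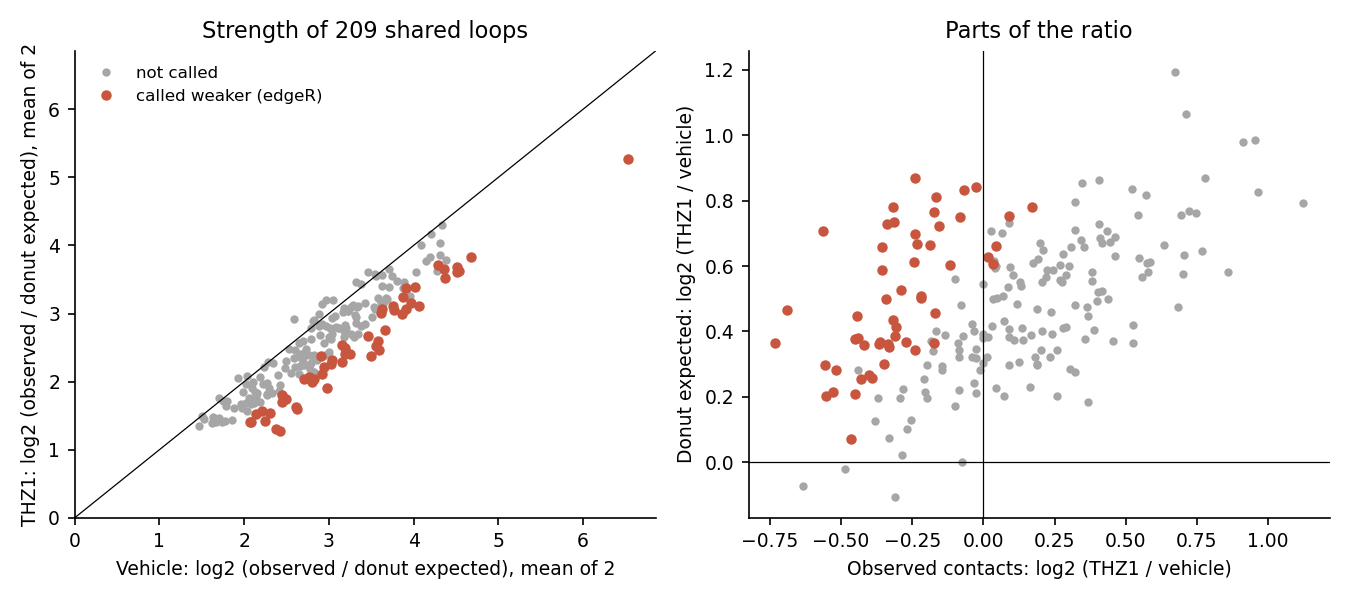
Left, strength of each of the 209 shared loops in THZ1 against vehicle, as log2 of observed over donut expected contacts, mean of 2 libraries; 194 points lie below the line of equality. Right, log2 change of the donut count against that of the observed count for the same loops; red points are the 54 loops called weaker by edgeR, a call that used both axes.

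Of the 3 loops printed above, the SLIT2 loop had strengths of 4.17 and 4.56 in vehicle and 3.76 and 3.54 in THZ1. Its change was -0.72 (SE 0.19, edgeR adjusted p = 0.011), and the observed counts behind it were 52, 75, 66 and 51. The TSC22D1 loop had 3.90 and 3.92 in vehicle and 3.24 and 3.50 in THZ1, a change of -0.54 (SE 0.21, edgeR adjusted p = 0.042). The ZNF516 loop had 4.37, 3.80, 3.99 and 4.04, and its change of -0.09 (SE 0.31, edgeR adjusted p = 0.836) was smaller than the spread between its libraries. Of all 5 shared loops with facing motifs, 2 were called weaker and 3 were not called.

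The 5 loops with the largest changes among those called were on chromosomes 4, 13 and 18 in the numbers 1, 3 and 1. The largest, a 390 kb loop at chr13:25150001-25545000 between points outside protein-coding genes, the first between PARP4 and ATP12A and the second between CENPJ and PABPC3, had strengths of 6.86 and 6.20 in vehicle and 5.51 and 5.02 in THZ1. Its change was -1.26 (SE 0.29, edgeR adjusted p = 0.0043), and it was also the strongest shared loop of chromosome 13. Its donut counts were only 0.292, 0.380, 0.481 and 0.615. Its anchors share sequence, since 17.1% of the 31-base words of the first anchor recur in the second in reverse orientation, so reads from the copies may be hard to place.

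The loop from KBTBD6 to KBTBD7, a neighbouring pair of related genes for adaptors of a CUL3 ubiquitin ligase, at chr13:41705001-41770000, is the only other shared loop with more than 10% of such words in common, at 13.3%. Its anchors touch exons of the genes, its strengths were 3.56, 3.43, 2.61 and 2.14, and its change was -1.09 (SE 0.24, edgeR adjusted p = 0.0035). The part of the shared sequence in either change was not tested. These are 2 of the 5 loops with the largest changes, so the top of the ranking holds most of the duplicated sequence.

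The remaining 3 had less than 1% of words in common. A 35 kb loop at chr18:20010001-20050000, between CTAGE1 and the DNA repair gene RBBP8, had strengths of 2.55 and 2.30 in vehicle and 1.20 and 1.34 in THZ1. Its observed contacts were themselves lower in both THZ1 libraries, with 76 and 69 against 44 and 46, and its change was -1.15 (SE 0.19, edgeR adjusted p = 0.0015). A 155 kb loop at chr13:28400001-28560000 joins the stretch between GSX1 and PDX1, the homeobox genes of brain and pancreas development, to an intron of URAD beside CDX2 and the receptor gene FLT3. Its strengths were 3.54, 3.64, 2.58 and 2.36, a change of -1.10 (SE 0.30, edgeR adjusted p = 0.0047). A 50 kb loop at chr4:76595001-76650000 has exons of G3BP2, a stress granule protein gene, at its first anchor and of G3BP2 and the vesicle tethering gene USO1 at its second, with strengths of 2.71, 3.24, 1.99 and 1.83 and a change of -1.09 (SE 0.23, edgeR adjusted p = 0.0037).

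The longest and the other strongest shared loops were not called. The longest on chromosome 4, 1290 kb, ran from an exon of FAT4, a giant cadherin gene, into the desert before INTU, with strengths of 3.70, 3.54, 3.21 and 3.14. The longest on chromosome 13, 2650 kb, ended at EFNB2, an ephrin ligand gene, and ARGLU1, with 2.63, 2.73, 2.31 and 2.34. The longest on chromosome 18, 665 kb, ran from between MIB1 and GATA6 to between CTAGE1 and RBBP8, with 2.68, 2.79, 2.35 and 2.60. The strongest on chromosome 4, inside introns of the potassium channel partner gene KCNIP4, had 4.20, 4.48, 4.58 and 4.01, and the conditions overlapped. The strongest on chromosome 18, from an intron of GAREM1 toward KLHL14, had 4.16, 4.48, 4.12 and 3.94. In all of these but the KCNIP4 loop the 2 THZ1 libraries lay below the 2 vehicle libraries. That held for 136 of the 209 shared loops of the 3 chromosomes and for 1799 of all 2617 loops tested.

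Loop anchors fell on the bodies of 986 of the 1349 protein-coding genes in at least 1 library. Of these 986 genes, 20.1% had more loops in both vehicle than in both THZ1 libraries and 5.27% had more in both THZ1 libraries. The 5 genes touched by most loops, on the mean of the libraries and looked up after the values were seen, were PALLD, DLGAP1, SHROOM3, MYO16 and TMEM241. PALLD, an actin-bundling protein gene, had 19, 21, 16 and 9 loops in vehicle 1, vehicle 2, THZ1 1 and THZ1 2, and DLGAP1, a synaptic scaffold gene, had 15, 15, 15 and 12. SHROOM3, a regulator of cell shape, had 13, 13, 10 and 11, MYO16, a myosin gene, 12, 14, 11 and 9, and TMEM241 14, 17, 7 and 8. The conditions did not overlap in these genes except in DLGAP1, where THZ1 1 equalled both vehicle libraries.

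Gene lists chosen by function gave small counts. Over all lists 12 shared loops with an anchor on a listed gene were tested and 5 were called weaker, too few to set against the 27.5% of all loops tested. Those not called lay at EPGN, SMAD2, NCAPG, NDC80 with SMCHD1, FBXW7, KLF12 and COL4A1 with COL4A2. The 4 SMAD genes, signal transducers of TGF-beta and BMP, had 10 and 13 loops in vehicle and 6 and 7 in THZ1, and SMAD1 went from 1 and 2 to 0 and 0. The 4 basement membrane genes had 18 and 20 against 15 and 14, with COL4A2 at 5, 6, 4 and 3 and LAMA3 at 10, 10, 8 and 9. In both lists every vehicle library exceeded every THZ1 library (exact permutation p = 0.333). The other 10 lists overlapped between conditions or had equal totals.

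Among those lists, the 5 EGF family ligand genes had 10, 11, 9 and 10 loops, the 6 receptor tyrosine kinases 3, 4, 2 and 5, and the 2 glypicans 2, 5, 5 and 3. The 315 kb shared loop at FLT1, a VEGF receptor gene, was called weaker (-0.90, SE 0.34, edgeR adjusted p = 0.034). The 11 cadherin genes had 11, 10, 12 and 6, of which CDH2, the N-cadherin gene, had 7, 8, 5 and 2, and its 270 kb shared loop was called weaker (-0.82, SE 0.27, edgeR adjusted p = 0.027). The 12 genes of mitosis and chromosome structure had 24, 23, 31 and 20. NCAPG, which encodes a condensin subunit, had 4, 4, 5 and 3 loops, and 1 of its 2 shared loops was called weaker (-0.87, SE 0.30, edgeR adjusted p = 0.032), as was the shared loop at HMGB2 (-0.82, SE 0.17, edgeR adjusted p = 0.0038).

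The 6 tumour suppressors had 18, 19, 20 and 18 loops, and within them FBXW7, a ubiquitin ligase subunit gene, had 2, 2, 7 and 5 while FAT1, a giant cadherin gene, had 8, 9, 6 and 7 and the chromatin reader gene ING1 3, 2, 1 and 1. Of the 2 shared loops at FBXW7 the 140 kb loop was called weaker (-0.94, SE 0.30, edgeR adjusted p = 0.019) and the 245 kb loop was not called. The 14 transcription factors had 18, 24, 25 and 20, with GATA6 at 7, 6, 4 and 4, FOXO1 at 3, 5, 0 and 2, KLF12 at 3, 5, 6 and 8, TCF4 at 1, 1, 2 and 2, NFKB1 at 0, 1, 2 and 2, and NFATC1 at 0, 0, 1 and 1. The first 2 of these had more loops in each vehicle library and the other 4 more in each THZ1 library. Loops were few at genes of neural adhesion and of the clade B serpin cluster, with 0, 2, 1 and 0 over 7 protocadherins, 1 in each library over 3 SLITRK genes and 2 in each library over 10 clade B serpins. Single genes of these lists thus went both ways while most totals overlapped.

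Loops with a transcription start site at one anchor were 31.03% ± 0.55 (SD, n = 2) of the vehicle loops and 26.6% ± 1.1 of the THZ1 loops, and loops with none were 60.1% ± 0.11 and 64.9% ± 1.1. In numbers, loops with a start site at one anchor went from a mean of 617 to 411.5, while loops without any went from 1194 to 1008. The shares moved alike on the other chromosomes, where loops with no start site were 55.8% in vehicle and 61.2% in THZ1.

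Gene deserts, taken as stretches between neighbouring protein-coding genes with at least 1 sequenced Mb, cover 28.6% of the 3 chromosomes (46 deserts, 102.5 Mb) and 17.3% of the others. Few loops had both anchors in a desert. Such loops, called desert loops here, numbered 49 and 65 in vehicle and 45 and 38 in THZ1, or 0.478, 0.634, 0.439 and 0.371 per Mb of desert. Leaving out 1 library moved the log2 change of this density, -0.46, to between -0.65 without vehicle 1 and -0.24 without vehicle 2. All other loops, set against the sequence outside deserts, gave 6.98, 8.13, 6.35 and 5.47 per Mb, and desert loops were 2.68%, 3.03%, 2.70% and 2.65% of all loops of the 3 chromosomes, with conditions overlapping. Deserts of the other chromosomes were richer in desert loops in every library, at 0.980, 1.24, 0.755 and 0.622 per Mb.

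Loops with 1 anchor in a desert and the other outside it, counted per desert, were more numerous, with 80, 104, 100 and 80 in vehicle 1, vehicle 2, THZ1 1 and THZ1 2, and the conditions overlapped. On chromosome 13 these numbered 15, 19, 25 and 20, with both THZ1 libraries above both vehicle libraries, unlike its desert loops.

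Without chromosome 4 the log2 change of desert loops per Mb was -1.49 in place of -0.46. By chromosome, the 22 deserts of chromosome 4 held 39, 44, 38 and 34 desert loops, the 14 of chromosome 13 held 5, 10, 3 and 1, and the 10 of chromosome 18 held 5, 11, 4 and 3. Of all 46 deserts, 21 (41.9 Mb) held no desert loop in any library and 13 held one in all 4. The longest without a desert loop were those from OLFM4 to PRR20A on chromosome 13 (4.09 Mb), from STIM2 to PCDH7 on chromosome 4 (3.69 Mb) and from SPRY2 to SLITRK1 on chromosome 13 (3.54 Mb). The desert from SPRY2 to SLITRK1 did hold 1 anchor of 2 loops in THZ1 1 and of 1 loop in THZ1 2, and of none in vehicle. A list of calls has no count behind an absent loop.

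Of 4 chromosome 4 deserts with many desert loops, those from HS3ST1 to RAB28 (7, 5, 5 and 6 loops in vehicle 1, vehicle 2, THZ1 1 and THZ1 2) and from SPRY1 to ANKRD50 (4, 6, 5 and 5) overlapped between conditions. HS3ST1 encodes a heparan sulfate sulfotransferase and SPRY1 an inhibitor of receptor tyrosine kinase signalling. Those from BOD1L1 to CPEB2 (7, 8, 4 and 2) and from LCORL to SLIT2 (6, 5, 3 and 2) had more loops in each vehicle than in each THZ1 library. Over all deserts with a desert loop in any library, 5 had more in both vehicle and 3 more in both THZ1 libraries.

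The desert from KLF12 to TBC1D4 on chromosome 13, singled out after its values were seen, had 3 and 5 desert loops in vehicle and 0 and 0 in THZ1. Loops with 1 anchor in it numbered 3, 3, 3 and 4, among them a 450 kb loop found in all 4 lists that was not called. Its desert loops in vehicle included a 460 kb loop with strengths of 2.30 and 3.13 and a loop of 360 kb in vehicle 1 and 370 kb in vehicle 2 with 2.47 and 2.42. The body of KLF12 itself, a transcriptional repressor gene, had more loops in THZ1 than in vehicle, as given above. No contact count was listed at these positions in THZ1, so the size of the difference is not known.

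**Figure D4:**
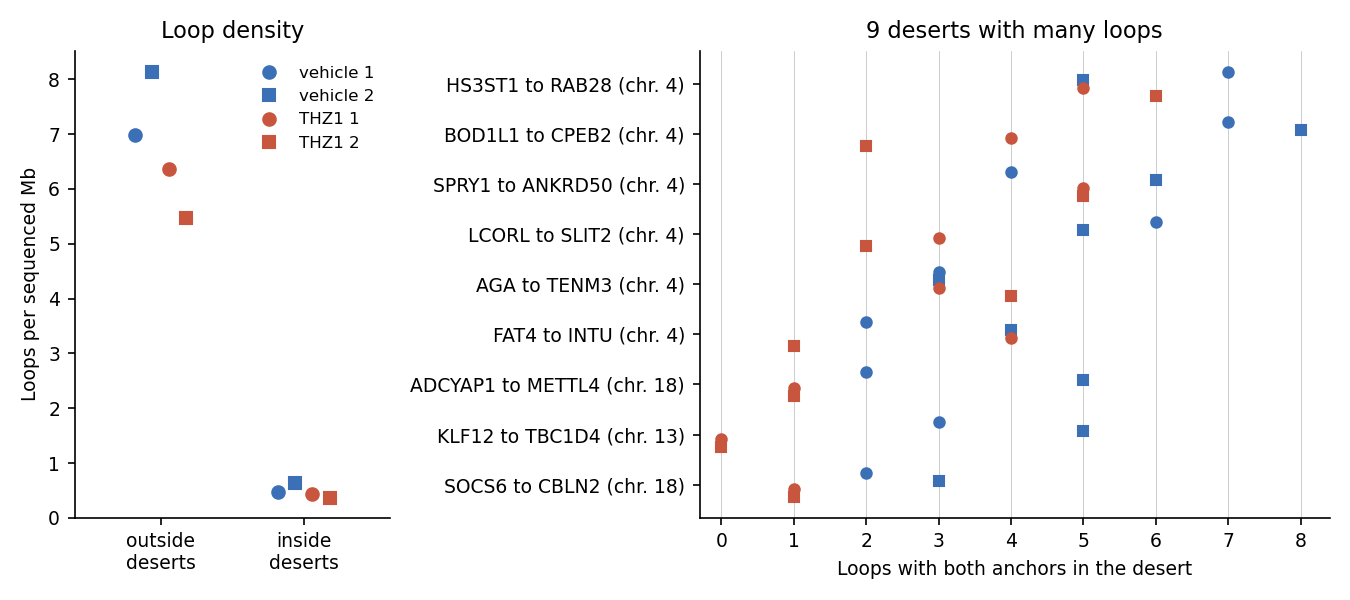
Left, loops per sequenced Mb outside and inside gene deserts of chromosomes 4, 13 and 18, 1 point per library, at 5.47 to 8.13 outside (all loops without both anchors in a desert) and 0.371 to 0.634 inside (both anchors). Right, loops with both anchors inside each of 9 deserts with many loops, named by the protein-coding genes at their edges.

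Domains ran opposite to loops, and their number in THZ1 was 2.02-fold that in vehicle (106 ± 14.1 against 214.5 ± 7.78, SD, n = 2). There were 0.268, 0.324, 0.615 and 0.584 domains per Mb in vehicle 1, vehicle 2, THZ1 1 and THZ1 2, and 0.444, 0.517, 0.910 and 0.862 on the other chromosomes, a 1.84-fold difference. Chromosome 4 had 65, 84, 140 and 134 domains, chromosome 13 had 14, 18, 39 and 33, and chromosome 18 had 17, 14, 41 and 42. On all 3 the conditions did not overlap, and the same held on every other chromosome. As a share of all domains, no change on them passed edgeR's test (log2 values of -0.01, 0.27 and 0.52 with adjusted p of 0.919, 0.692 and 0.345), and of the 23 chromosomes 4.35% were called higher, which is chromosome 21 alone, and 0% lower.

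The higher domain number in THZ1 spread over all size classes on the gene-poor chromosomes, the largest included. Domains of 200 to 300 kb numbered 6 and 12 in vehicle and 59 and 53 in THZ1, and those of 300 to 600 kb numbered 0 and 0 against 16 and 12. Domains of 200 kb or less went from 45 and 56 to 76 and 73. Domains over 600 kb went from 45 and 48 to 69 and 71, whereas elsewhere they numbered 363, 362, 368 and 382. The 3 chromosomes thus held 11.0% and 11.7% of all domains over 600 kb in vehicle and 15.8% and 15.7% in THZ1 (exact permutation p = 0.333). Over 8 alternatives the difference of 4.36 percentage points ranged from 2.16 to 4.70.

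Of these large domains chromosome 4, the longest of the 3 chromosomes, held 27, 24, 40 and 38, while chromosome 13 had 10, 17, 21 and 21 and chromosome 18 had 8, 7, 8 and 12. Of the large domains in THZ1 1, 37.7% matched one in vehicle 1, 46.4% one in vehicle 2 and 60.9% one in THZ1 2 (both boundaries within 20 kb). The median domain size was 230, 215, 250 and 250 kb, and without chromosome 4 its direction turned, with a log2 change of -1.22. The mean went the other way, from 499.7 and 471.6 kb in vehicle to 440.4 and 445.4 kb in THZ1.

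**Figure D5:**
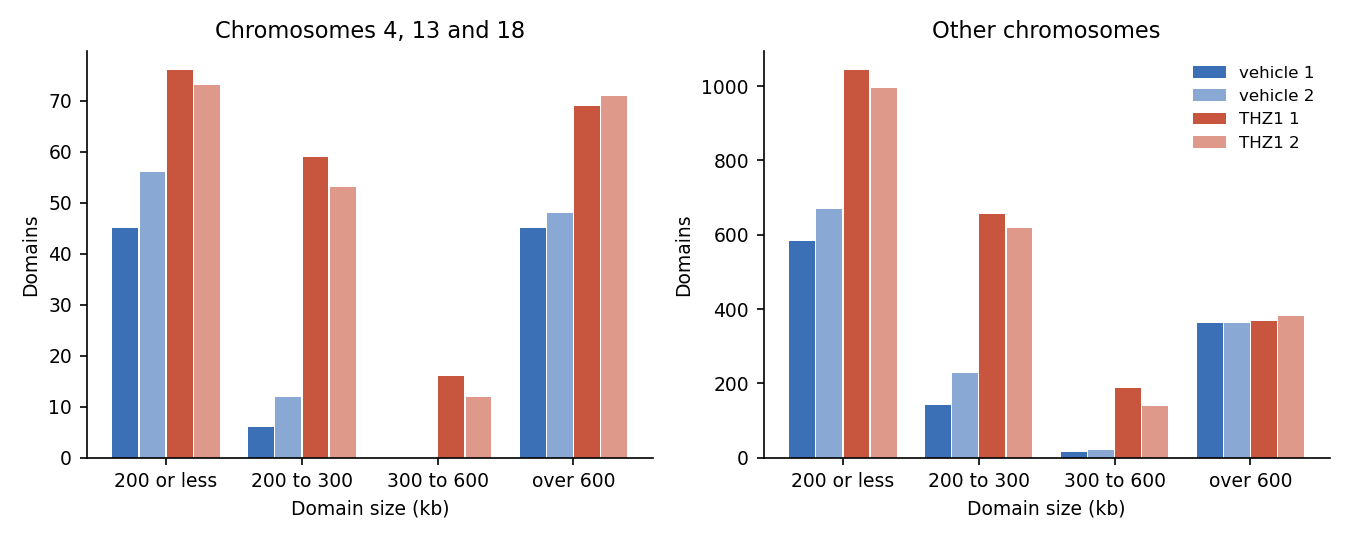
Number of domains by size in each library, on chromosomes 4, 13 and 18 (left) and on the other chromosomes (right). In the class over 600 kb the gene-poor chromosomes go from 45 and 48 domains in vehicle to 69 and 71 in THZ1, and the others from 363 and 362 to 368 and 382.

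Domains covered 16.3% and 17.6% of the sequence outside deserts in vehicle and 32.3% and 32.1% in THZ1. Inside deserts they covered 5.19%, 9.60%, 11.4% and 10.4%, so deserts were less covered in every library. A loop of the same library joined both boundaries of 38.8% to 42.7% of the domains, with 41, 47, 88 and 81 such domains, and the median corner score, the caller's measure of how sharp a domain's corner is, was 1.02, 1.07, 1.11 and 1.10.

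On chromosome 13 the largest domain matched in all 4 libraries, 960, 940, 950 and 940 kb, held HTR2A, a serotonin receptor gene, and SUCLA2, a mitochondrial enzyme gene, with corner scores of 0.463, 0.473, 0.861 and 0.757. On chromosome 18 it was 260, 270, 270 and 260 kb long, lay at GREB1L and had corner scores of 1.18, 1.17, 1.33 and 1.29. In both domains the 2 THZ1 libraries scored above the 2 vehicle libraries. The median score over all domains did so too, on these chromosomes and on the others, where it was 1.02, 1.06, 1.12 and 1.11. Matched domains numbered 5 on chromosome 13 and 2 on chromosome 18, and the scores of the remaining ones are not given. Domain lists agreed less well than loop lists, with Jaccard indices of 0.368 within vehicle, 0.393 within THZ1 and 0.197 to 0.263 between conditions.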

How the data were processed

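The authors processed Arima Hi-C reads with Juicer 1.6 on hg19 and deposited, per library, a loop list (juicer_tools 1.19.02 by its header) and a domain list. Per the file headers the loop lists hold observed contact counts, expected values (a signal from the local surroundings of each loop) and false discovery rates (q-values), and the domain lists hold a corner score in the deposited score column. Caller settings and total contacts per library are not given in the sources used here. The study's methods give read depth only as a range over the Hi-C libraries, so the depth of each one is unknown, and its part in the numbers of loops and domains was not tested. The authors' 2 tables of loops unique to a condition hold their own comparison and were not used. The members, gene lists and named loops were chosen with earlier results of these data known. Anchors fell within the ends of GRCh37 chromosomes, and genes came from GENCODE 44 lifted to GRCh37. Named loops were the 5 largest called changes lower or higher in all 4 pairs, and the longest and strongest shared loop of each chromosome (mean observed count of at least 20 for the strongest). Named deserts were the 5 with most loops and the 3 longest without. Named domains were the largest matched in all libraries, and genes were those at these features or in the lists. One desert and one domain that this rule names are not reported here. Of 2624 loops with identical anchors, 7 with an expected value near 0 were left out, and 1 domain per library outside the autosomes and X. edgeR 4.0.16, DESeq2 1.42.0, R 4.3.3, Python 3.11.15 and pandas 2.3.3 were used. In counts simulated with edgeR's own fitted variability, its test of shared loops found 12% of 1.5-fold and 66% of 2-fold changes. Of its calls there, 2.5% were false. A shared loop that was not called may thus have changed. The test of loops per chromosome found 68.7% of simulated 1.2-fold changes. SE is the larger of the test's own and the counting error. Alternatives were the matching distance, FDR, anchor width, desert size, gene set, expected count, tool, replicate block, and each chromosome or library left out.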

Additional observations from a re-analysis of the deposited data

Results flagged for a closer look

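Chromosome 4 drew attention because its change differed from that of all chromosomes together. Its share of all loops was 0.17 higher in THZ1 on the log2 scale (edgeR, adjusted p = 0.0022), with 1057 and 1219 loops in vehicle and 989 and 848 in THZ1. The SE of that change is the counting error of the loops and not the spread between libraries.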

How the results depend on the processing

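Of 272 alternative values for 29 results, 240 kept their direction and side of the threshold. Results judged by the exact permutation test, which cannot go below p = 0.333, could not change side, so for them only the direction was checked. A value counted as kept may still have changed in size. The read depth of each library is not known, so a loop absent from a list may be below its detection limit. The count of shared loops called weaker was the least stable, 54 as reported, 2 without an expected count (TMM), 1 with DESeq2, and 0 to 20 with a library left out. The median change of these loops turned to 0.062 under TMM. The cause was not tested.

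With the replicate block, 55 shared loops were called weaker, of which 54 were called without it. The numbers were not shown to pair the libraries, since the deviations of vehicle 1 and THZ1 1 correlated at 0.0162.

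With 25 kb anchors only, log2 changes turned to 0.21 for loops per Mb, per gene and outside deserts, and to 0.21 inside deserts, and the strength difference to the other chromosomes turned from -0.064 to 0.033. The median loop size over that of the other chromosomes (log2 change of -0.024) was 0.025 at an FDR of 0.01, 0.15 with 5 kb and 0.19 with 25 kb anchors, 0.0045 without chromosome 18, and -0.052 to 0.0041 with a library left out. The share of loops in deserts (-0.18 percentage points) was 0.26 with 5 kb anchors, 0.0099 with lncRNA genes and 0.0070 without chromosome 13. Without chromosome 4, the difference in the share of loops of 90 kb or less was -0.062 in place of 0.92 percentage points, the log2 change of the median domain size -1.22 in place of 0.17, and the share of domains with a loop at both boundaries 2.23, the latter 1.73 for high corner scores.

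The change of chromosome 4 in loop share was 0.15 to 0.18 with a library left out. That of chromosome 13 was -0.013 at an FDR of 0.01 and -0.034 to 0.035 with a library left out, and that of chromosome 4 in domain share -0.081 to 0.066. The domain Jaccard difference (0.149) was 0.111 at 10 kb and 0.172 at 50 kb, and the ratio of motif shares in anchors and windows (3.11) was 7.54 with C fixed at the fourth base. The share of domains over 600 kb was added after seeing the data.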
